A study of Saccharomyces cerevisiae with 16 samples.

Results

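The regions described here are 157 long intergenic regions of the nuclear genome of Saccharomyces cerevisiae, out of 5949 intergenic stretches of at least 100 bp. Each one is a stretch of at least 1500 bp between 2 neighbouring genes of any type in the R64 annotation, lies more than 30000 bp from a chromosome end, and has under 20% of its bases at zero coverage in each of the 16 libraries. Of 271 stretches of that length, 97 were nearer to an end, and 17 of the remaining 174 were left out for their zero bases. The limit on zero bases is a limit on measured coverage and removed mostly regions of low level. No difference between time points is part of the rule, but the rule was set with earlier results of these data known. The regions are named here by their flanking genes, the gene of lower coordinate first, and tRNA genes without a common symbol keep their systematic names.

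The libraries are chromatin immunoprecipitations of histone H3 acetylated at lysine 18 (H3K18ac) from yeast that cycle through their metabolism in continuous culture, with 1 library at each of 16 time points between 48.32 and 51.95 h. Sample labels give the time point and the hour but no phase, and the phases used in every contrast here were read from a figure of the sampling points in the paper. By that reading, time points 3 to 5 belong to the oxidative phase (OX, n = 3), 6 to 11 to the reductive building phase (RB, n = 6), and 1, 2 and 12 to 16 to the reductive charging phase (RC, n = 7). All came from strain ZKY329, a CEN.PK strain of mating type MATa in which Spt7, a subunit of the SAGA complex, carries a FLAG tag (SPT7-FLAG::natMX), so the phases differ in time alone. Each time point has 1 library and neighbouring time points resemble each other, so the p-values below measure the spread between time points of a phase and not between cultures.

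H3K18ac is laid down mainly by Gcn5, the acetyltransferase of SAGA, on nucleosomes around the starts of transcribed genes. The yeast genome is compact, and most neighbouring genes lie close together. Unusually long gaps often hold the extended upstream regions of highly regulated genes, such as those for hexose transporters, cell surface proteins and regulators of development, or lie beside tRNA genes, which are preferred insertion sites of retrotransposons. Transposon remnants, replication origins and transcripts without an entry are not in the gene table used here. It does hold some stable unannotated transcripts, such as SUT053. A region counted as intergenic may therefore contain features that the table does not list.

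The 157 regions had a median length of 1889 bp (1501 to 3870 bp), summed to 319193 bp and made up 2.64% of the nuclear genome. Their flanks were 184 gene starts, 71 gene ends, 54 tRNA genes and 5 other noncoding genes, where start and end refer to the coding sequence because the table holds no untranslated regions. Divergent regions, bounded by 2 starts, were 31.2% of the long regions and 23.5% of 5280 shorter stretches that met the same distance and zero limits. A tRNA gene bounded 33.1% of the long regions against 7.16% of the shorter ones. Convergent regions, bounded by 2 gene ends, were 4 of 157 and 22.0% of the shorter stretches. The remainder were 48 tandem regions, with 1 start and 1 end, and 4 regions beside another noncoding gene. At the length limit, FAA2/BIM1 (1501 bp, level 1.66), FOX2/YNCK0016W (1502 bp, 1.61) and MTH1/YNCD0021C (1504 bp, 1.55) lay just inside, and TPO3/TDA6 (1488 bp, 1.85), YPR014C/SUT418 (1479 bp, 2.56) and CYC8/RAD16 (1477 bp, 1.30) just outside.

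Per library, coverage averaged 27.5 to 39.4 reads over the nuclear bases, and it stopped at 102 reads per base in each of the 16. Levels below are mean coverage divided by that library's nuclear mean, so a level of 1 is the genome average. Of the 157 regions, 108 held bases within 10 reads of this ceiling, with a median of 0.522% of bases and a maximum of 36.5% in YOR376W/YOR376W-A. High levels are therefore compressed. No input or H3 library was used here, so nucleosome density and mappability cannot be told apart from acetylation in the levels.

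The long intergenic regions carried more H3K18ac signal than the genome average. Their median level was 1.46 (quartiles 1.12 and 1.80, range 0.581 to 2.51), and 125 of 157 (79.6%) exceeded 1. Shorter stretches had a median of 1.35 with 70.8% above 1, and the bodies of 5405 protein-coding genes had a median of 1.09 with 56.8% above 1. Length alone did not order the levels. The median was 1.22 for stretches of 100 to 300 bp, 1.56 for 750 to 1000 bp and 1.50 for 1000 to 1500 bp, then 1.46, 1.48 and 1.29 for the long regions of 1500 to 2000, 2000 to 2500 and over 2500 bp. These are descriptions of averages over 16 libraries and were not tested.

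The levels also differed by the type of flanking genes. Divergent long regions had a median of 1.66, regions beside a tRNA gene 1.44, tandem regions 1.26 and the 4 convergent regions 0.944. Shorter stretches had medians of 1.71 (divergent), 1.41 (tandem), 1.28 (tRNA) and 0.643 (convergent), with the tRNA-flanked ones below the tandem ones. Long tRNA-flanked regions thus stood above the shorter tRNA-flanked stretches, whereas long divergent and tandem regions stood below their shorter counterparts.

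The signal was uneven within a region. Cut into 100 bp bins, the long regions gave 3121 bins, of which 68.7% were above 1. In the median region the highest bin reached 2.38 and the lowest 0.522. Every bin was above 1 in 26 regions and no bin was in 2. The highest bin lay at least 500 bp from both genes in 70 regions, a class that holds 49.7% of all bins, and within 300 bp of a gene in 51 regions, a class with 30.2% of bins. The lowest bin lay within 100 bp of a gene in 44 regions, although that class holds only 10.1% of bins.

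The average profile showed where these highs and lows lay. Beside gene starts the mean was 1.59 ± 0.12 over the first 100 bp (SD over 16 time points, 184 flanks), 1.46 ± 0.12 at 500 to 600 bp and 1.58 ± 0.13 at 900 to 1000 bp. Distance was counted from each flanking gene across the whole region, so far bins can lie near the opposite gene. They do not show how far the signal of a start extends. Beside gene ends the mean was low at first, at 1.08 ± 0.07, and reached 1.47 ± 0.13 at 500 to 600 bp. Beside tRNA genes it was lowest, at 0.989 ± 0.061, then 1.28 ± 0.07 in the next bin and 1.60 ± 0.07 at 400 to 500 bp. At least 600 bp from both genes, here called the interior, the mean was 1.51 ± 0.11.

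**Figure D1:**
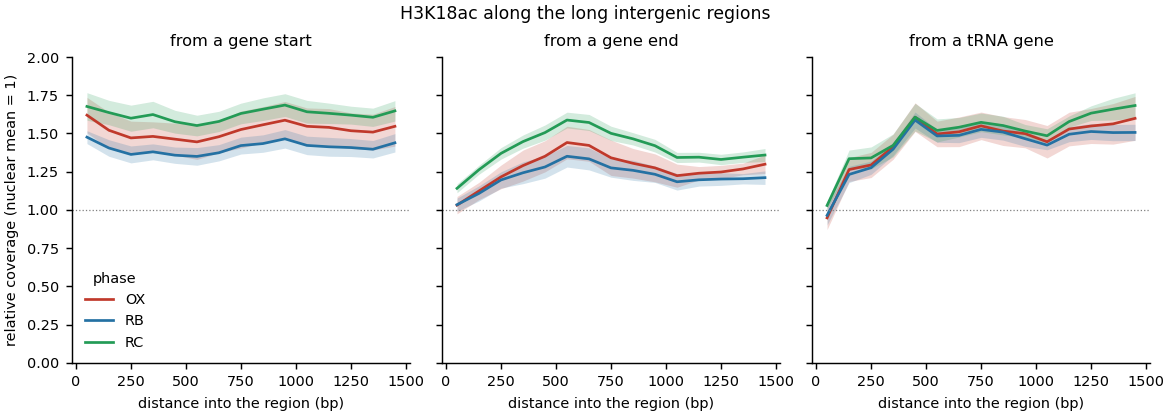
Mean relative coverage (nuclear mean = 1) against distance into the region in 100 bp bins, from gene starts, gene ends and tRNA genes, with 1 line per phase and bands of 1 SD over the time points of the phase. Starts begin high at 1.59 on average, ends at 1.08 and tRNA genes at 0.989, and the RC line lies above the RB line in each bin.

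Tandem and divergent regions differed in the shape of this profile. In divergent regions the starts kept between 1.53 and 1.65 over the whole 1500 bp. These regions had a median length of 1874 bp and were counted from both starts. Far bins therefore often lie near the opposite start, and the flat curve is partly fixed by this counting. In tandem regions the mean from the start was 1.40 ± 0.09 in the first bin, 1.19 ± 0.06 at 500 to 600 bp and 1.48 ± 0.11 at 900 to 1000 bp, so the dip lay between these higher bins. The first bin at starts averaged 1.59 in the long regions, against 1.81 ± 0.15 in stretches of 1200 bp up to 1500 bp, and the interior 1.51, against 1.55 ± 0.10.

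Over the cycle, the mean level of the long regions was highest in RC and lowest in RB. In the 7 RC libraries it was 1.49 to 1.65 with a mean of 1.55 ± 0.06 (SD), in the 3 OX libraries 1.55, 1.45 and 1.35, and in the 6 RB libraries 1.33 to 1.47 with a mean of 1.36 ± 0.05. All 7 RC values lay above all 6 RB values, and OX spanned the gap between them in the order of sampling. Shorter stretches had the same order of phase means, with 1.40 ± 0.05 in RC, 1.38 ± 0.08 in OX and 1.28 ± 0.02 in RB. Gene bodies lay within a narrow range and were lowest in RC, with 1.21 ± 0.02 in RC, 1.25 ± 0.01 in OX and 1.23 ± 0.01 in RB. The ratio of long regions to shorter stretches, in which any constant factor per library cancels, was 1.11 ± 0.02 in RC, 1.05 ± 0.03 in OX and 1.06 ± 0.03 in RB. Quantile normalization and a correction for the ceiling would not cancel in this ratio. The RC range of this ratio, 1.08 to 1.14, overlapped those of OX (1.02 to 1.09) and RB (1.03 to 1.12). The highest RB library was time point 11, the last before RC.

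**Figure D2:**
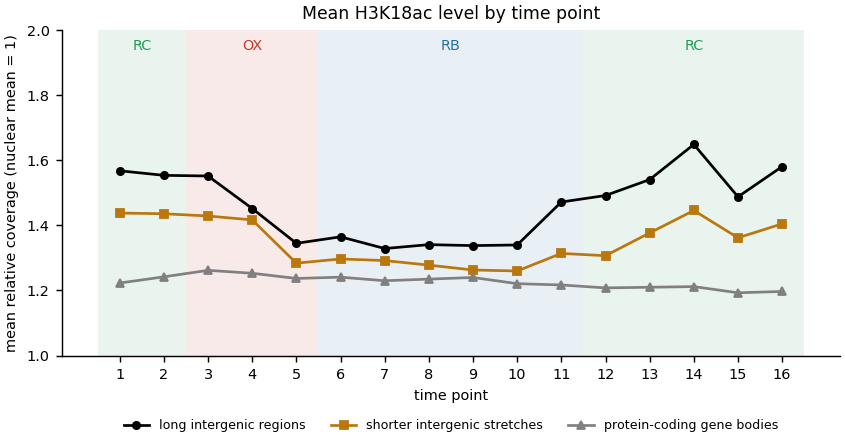
Mean relative coverage at each of the 16 time points for the long intergenic regions, the shorter intergenic stretches and the protein-coding gene bodies, with the phases shaded; the axis starts at 1. The long regions lie above both other classes in every library, with 1.33 at time point 7 and 1.65 at time point 14.

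Single regions varied over a narrower range than intergenic stretches in general, which are shorter (median 368 bp, all stretches of at least 100 bp). From the lowest to the highest library the log2 level of the median region spanned 0.51, against 0.64 over all 5793 stretches tested. A span of more than 1 was found in 8 of the 157 long regions and in 1074 of the 5793 stretches. The highest library was time point 14 (RC) for 55 regions, or 35.0% against 19.1% of all stretches, and time point 4 (OX) for 28, or 17.8% against 25.6%. Time point 14 was also the library of lowest depth, at 27.5 reads per base under the ceiling of 102. The part of depth and ceiling in this count was not tested. By phase, 103 regions peaked in RC (65.6% against 50.3% of all stretches), 40 in OX (25.5% against 31.7%) and 14 in RB (8.92% against 18%). The lowest library fell in RB for 68 regions and in OX for 64, and it was not counted over all stretches.

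Phases were compared by limma on log2(level + 0.1) over all 5793 stretches, with Benjamini-Hochberg adjustment over all of them at 0.05. All 157 long regions passed the coverage minimum of 5 reads per base. The F test over the 3 phases called 94 of 157 (59.9%), against 67.3% of all stretches. In the contrasts below each phase is set against the mean of the other 2, and all 3 contrasts use the same 16 libraries.

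RC was the phase with the most calls. It was higher in 66 of the 157 regions and lower in 8, where the percentages over all stretches were 32.9% higher and 15.5% lower. The median RC difference was 0.11 in the long regions and 0.06 over all stretches, on the log2 scale. RB was higher in 2 and lower in 51 regions, where 9.32% and 26.9% of all stretches were called, with a median of -0.11 against -0.08. OX was higher in 21 and lower in 21, where 20.4% and 17.8% of all stretches were called, with a median of -0.01 against -0.02.

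These splits depended on the scaling. With quantile normalization RC was higher in 48 and lower in 21 long regions, RB higher in 21 and lower in 26, and OX higher in 16 and lower in 34. Of all stretches, 49.5%, 28.2% and 40% were called in these contrasts, both directions together. With median-of-ratios scaling the numbers were 46 and 22 for RC, 19 and 31 for RB, and 20 and 28 for OX. Of all stretches, 47.6%, 30.1% and 41% were called there. With coverage corrected for its ceiling they were 72 and 15, 16 and 45, and 20 and 46, against 53%, 35.1% and 48.5%. The median RC difference of the long regions was 0.05, 0.04 and 0.17 under these settings. Over all stretches it was 0.003, -0.008 and 0.06. The OX counts also rested on time point 4: without it OX was higher in 2 regions and lower in 1, and 10.6% of all stretches were called against 38.2% with it.

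**Figure D3:**
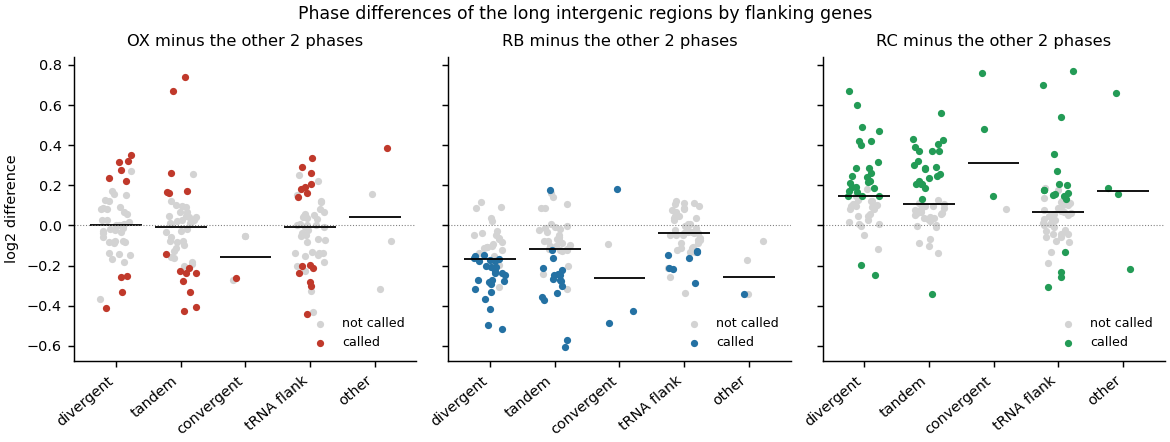
Log2 difference of each phase from the mean of the other 2 for the 157 long regions, grouped by flanking genes, with called regions in colour and a bar at each group's median. Divergent regions lie mostly below 0 in RB (median -0.17) and above 0 in RC (median 0.15), while regions beside tRNA genes centre near 0 in both (-0.04 and 0.07).

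The calls were also counted by the type of flanking genes, beside the percentages of all stretches of the same type. Among 49 divergent regions RC was higher in 24 and lower in 2, where 41% and 13.7% of all divergent stretches were called, and RB was lower in 25 and higher in 0, where 39.8% and 2.28% were called. Among 48 tandem regions RC was higher in 22 and lower in 1, where 39.2% and 15.6% of all tandem stretches were called, and RB was lower in 16 and higher in 1, where 33.1% and 5.36% were called. The F test called 21 of 52 regions beside tRNA genes (52.9% of all tRNA-flanked stretches), 33 of 49 divergent (73.3%) and 33 of 48 tandem regions (73.2%). These counts came closer to each other under other scalings, with 30 of 52, 29 of 49 and 30 of 48 after quantile normalization and 28 of 52, 31 of 49 and 28 of 48 with median-of-ratios scaling. Among the tRNA-flanked regions RB was lower in 7 and higher in 0, where 17.2% and 8.78% of all tRNA-flanked stretches were called, but lower in 2 and higher in 14 with quantile normalization and lower in 3 and higher in 9 with median-of-ratios scaling. For RC, too, the direction in these regions turned with the scaling. RC was higher in 14 and lower in 4 as scaled by the nuclear mean (27.9% and 11.6% of all tRNA-flanked stretches), but higher in 6 and lower in 12 with quantile normalization and higher in 7 and lower in 14 with median-of-ratios scaling.

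Windows of 300 bp showed where in a region the phases differed. They were fitted together for all stretches of at least 900 bp, and the F test called 444 of 755 windows of the long regions and 59.1% of all windows, with OX higher in 107 and lower in 102, against 15.6% and 15.8% of all windows. In the 157 centre windows, the 300 bp at the middle of each region, RC was higher in 54 and lower in 14, where 32.7% and 11.5% of all centre windows were called. Beside gene starts RC was higher in 70 and lower in 14 of 180 windows, where 35.9% and 11.8% of all such windows were called. In the first 300 bp inside those genes RC was higher in 42 and lower in 38 of 178, where 22.5% and 25.8% were called. Inside tRNA genes RC was higher in 11 and lower in 2 of 42 windows, where 20.3% and 3.12% were called. The counts of the long regions thus lay near those of all windows at each place. Over the 16 time points the centre followed the window beside a start with a median Pearson r of 0.51 and the window inside that gene with a median of 0.27. These correlations describe windows of the same libraries, which share depth and scaling. Of 54 centres called higher in RC, 24 had at least 1 flanking gene whose inside window was also called higher, and of the 103 other centres 39 did.

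In RC, 10 regions were called higher with each of the 7 RC libraries above all 9 others, or 6.37% of the long regions against 2.87% of all stretches. The 5 with the largest differences are described in turn.

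MGA1/RIE1 (chromosome VII, 989420 to 991175) is convergent, between the end of MGA1, a gene for a protein similar to heat shock transcription factor, and the end of RIE1, which encodes an RNA-binding protein. Its level was 1.44 to 1.90 in RC (median 1.71), against 1.27, 0.887 and 0.913 in OX and 0.762 to 1.42 in RB (median 0.841). The RC value of time point 2 and the RB value of time point 11 nearly met, without overlap. The difference was 0.76 ± 0.11 (SE; adjusted p = 0.0001984, limma). The signal formed a peak in the first 100 bp after MGA1, at 3.17 in RC, 2.24 in OX and 1.68 in RB, and a second one at 1100 to 1200 bp, at 2.59 in RC, 1.67 in OX and 1.39 in RB. Both peaks were highest in RC, and the last 300 bp inside MGA1 were also higher in RC, by 1.00 (adjusted p = 0.00022, limma over windows).

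PDC6/CTT1 (chromosome VII, 652982 to 654633) is divergent, between the start of PDC6, a minor pyruvate decarboxylase gene, and that of CTT1, the gene of cytosolic catalase. Its level was 2.02 to 2.46 in RC (median 2.19), against 1.99, 1.25 and 0.952 in OX and 1.15 to 1.91 in RB (median 1.33). The groups came close at the edges of RC, since the OX value of time point 3 and the RB value of time point 11 were only just below the lowest RC value. The difference was 0.67 ± 0.12 (SE; adjusted p = 0.0003378, limma). It was uneven along the region: the 300 bp beside CTT1 were higher in RC by 1.24 (adjusted p = 0.0003, limma over windows), with levels of 2.64 in RC, 1.01 in OX and 1.35 in RB, whereas the 300 bp beside PDC6 had levels of 1.86, 1.72 and 1.48 and passed no contrast. The centre window lay with the CTT1 side, with an RC difference of 0.80.

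HXT3/SVF1 (chromosome IV, 1164661 to 1167213) is tandem. It lies upstream of HXT3, a low-affinity glucose transporter gene, and behind SVF1. Its level was 1.32 to 1.65 in RC (median 1.40), against 1.20, 0.989 and 0.822 in OX and 0.805 to 1.27 in RB (median 0.890). No other library reached the RC range, with a difference of 0.56 ± 0.09 (SE; adjusted p = 0.0002166, limma). Here 2 zones of the same region peaked in different phases. At 900 to 1000 bp from HXT3 the level was 1.35 ± 0.61 in OX, against 0.536 ± 0.043 in RB and 0.602 ± 0.101 in RC. At 1600 to 1700 bp it was 3.10 in RC, against 1.81 in OX and 1.92 in RB. The RC signal extended to SVF1. The 300 bp beside its end were higher in RC by 1.09 (adjusted p = 0.0002198, limma over windows), with 2.02 in RC, 0.851 in OX and 1.08 in RB, and the last 300 bp inside it by 0.64 (adjusted p = 0.0002188). The 300 bp beside HXT3 were nearly bare in all phases, at 0.307 in RC, 0.381 in OX and 0.303 in RB, and passed no contrast.

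GAT1/PAU5 (chromosome VI, 97499 to 99230) is convergent, between the ends of GAT1, a GATA-type activator of nitrogen catabolite genes, and PAU5, a seripauperin gene. Its level was 0.861 to 0.985 in RC (median 0.927), against 0.839, 0.671 and 0.626 in OX and 0.513 to 0.721 in RB (median 0.565). The RC libraries lay in a narrow band above the others, with a difference of 0.48 ± 0.07 (SE; adjusted p = 0.0002148, limma). The signal formed a single hill in the interior that reached 1.75 in RC, 1.32 in OX and 0.907 in RB at 600 to 700 bp from GAT1, while the 300 bp inside the end of GAT1 had phase means of 0.538, 0.531 and 0.503.

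YNCL0009C/ETS2-1 (chromosome XII, 448722 to 451574) lies between a tRNA gene and an external transcribed spacer of the ribosomal DNA. Its level was 1.59 to 2.02 in RC (median 1.77), against 1.48, 0.831 and 0.822 in OX and 0.956 to 1.50 in RB (median 1.04), with a difference of 0.70 ± 0.11 (SE; adjusted p = 0.0002166, limma). The values at time points 3 and 11 were again the closest to RC. Coverage fell to 0.111 in RC, 0.0875 in OX and 0.0506 in RB in the last bin before the ribosomal DNA, a repeat from which reads with several matches were discarded. The other 5 of the 10 regions were YPR148C/NCE102, CUP9/TRE1, ICS2/AMN1, YIR018C-A/FLO11 and ESF2/YNCN0020C, with differences of 0.16 to 0.40.

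CUP9/TRE1 (chromosome XVI, 213963 to 216011) is the one long region beside any of the 13 transcription factor genes that the study singles out, and CUP9 encodes a homeodomain repressor. Its level was 1.70 to 2.16 in RC (median 1.79), against 1.63, 1.49 and 1.38 in OX and 1.29 to 1.52 in RB (median 1.37). The RC libraries lay above all others, with a difference of 0.37 ± 0.06 (SE; adjusted p = 0.0002271, limma). The phases stood far apart in the valley of the region: 500 to 600 bp from CUP9 the level was 0.857 in RC, against 0.385 in OX and 0.496 in RB, while in the first 100 bp upstream of CUP9 it was 2.59 in RC, 2.78 in OX and 2.31 in RB.

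DSF2/FLR1 (chromosome II, 251017 to 252562) was the one long region called lower in RC with all 7 RC libraries below the 9 others, or 0.637% against 0.639% of all stretches. FLR1 encodes a multidrug transporter, whose end bounds the region, and DSF2 starts at its other side. The level was 1.00 to 1.18 in RC (median 1.08), against 1.28, 1.46 and 1.49 in OX and 1.34 to 1.49 in RB (median 1.43). The difference was -0.34 ± 0.05 (SE; adjusted p = 0.0001984, limma). It extended into DSF2, whose first 300 bp were lower in RC by 0.56 on the log2 scale, with levels of 1.39 in RC, 2.07 in OX and 2.13 in RB.

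In OX, 10 regions were called higher with the 3 OX libraries above all 13 others, or 6.37% against 9.37% of all stretches. HXT1/HXT5 and BSC1/PUS9 had the largest differences, and both were also called lower in RB with all RB libraries below all others, a rule met by 9 long regions (5.73% against 1.85% of all stretches).

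HXT1/HXT5 (chromosome VIII, 292626 to 294668) is tandem, upstream of HXT1, the gene of a low-affinity glucose transporter, and behind HXT5, a further hexose transporter gene. Its level was 0.933, 1.14 and 0.818 in OX, against 0.425 to 0.500 in RB, with a median of 0.460, and 0.547 to 0.666 in RC, with a median of 0.602. The 3 phases did not overlap at any time point. The OX difference was 0.74 ± 0.08 (SE; adjusted p = 5.192e-05) and the RB difference -0.61 ± 0.07 (adjusted p = 9.82e-05, both limma). Although this was the long region with the second lowest mean level, 0.620, it held a hill 1200 to 1800 bp upstream of HXT1 that reached 2.53 ± 0.17 in OX, against 1.04 ± 0.09 in RB and 1.56 ± 0.21 in RC, at 1400 to 1500 bp. In its centre window, by contrast, the level was 0.247 in OX, 0.256 in RB and 0.241 in RC, and the first 300 bp inside HXT1 passed no contrast. The 300 bp beside HXT1 were low but did differ, at 0.681 in OX, 0.313 in RB and 0.316 in RC. Their OX difference was 0.86 (adjusted p = 0.003935, limma over windows).

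BSC1/PUS9 (chromosome IV, 385588 to 387512) is tandem, upstream of BSC1 and behind PUS9, which encodes a mitochondrial tRNA pseudouridine synthase. Its level was 1.14, 1.80 and 0.982 in OX, against 0.583 to 0.752 in RB, with a median of 0.672, and 0.758 to 0.958 in RC, with a median of 0.880. Time point 4 stood far above the rest, but each OX value was above every other value. The OX difference was 0.67 ± 0.12 (SE; adjusted p = 0.0006064, limma), and over 16 time points the log2 range of 1.48 was the largest among the long regions. Peaks of OX signal lay at the start of BSC1 (2.60 in OX, 1.23 in RB and 1.21 in RC at 100 to 200 bp) and at 800 to 900 bp (2.47 in OX, 1.10 in RB and 1.64 in RC). The last 300 bp inside PUS9 were higher in OX as well, by 1.21 (adjusted p = 0.00026, limma over windows).

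**Figure D4:**
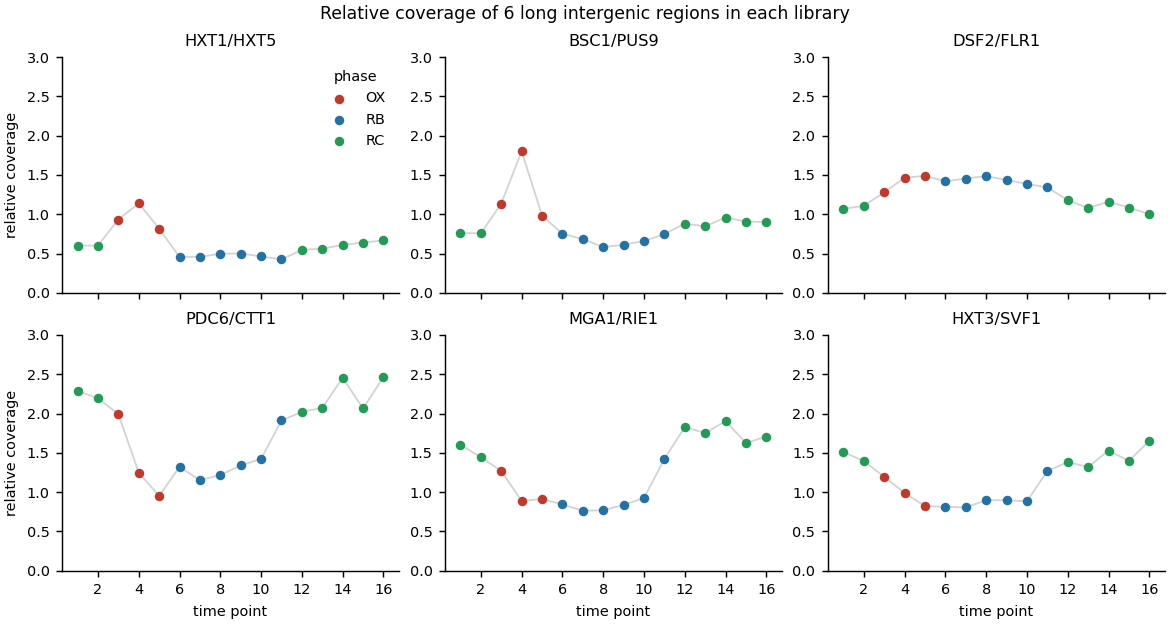
Relative coverage of 6 long regions in each of the 16 libraries, coloured by phase. HXT1/HXT5 and BSC1/PUS9 peak at time point 4 in OX, DSF2/FLR1 is lowest in RC, and PDC6/CTT1, MGA1/RIE1 and HXT3/SVF1 are highest in RC, with the RB value of time point 11 standing above the other RB values in all of these last 3.

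In COM2/RPS26B and SNR84/HLR1 the OX difference was larger beside 1 flanking gene than beside the other. In COM2/RPS26B (chromosome V, 422447 to 423951), divergent between COM2 and the ribosomal protein gene RPS26B, the level was 1.93, 2.05 and 1.82 in OX, against 1.27 to 1.75 in RB, with a median of 1.59, and 1.08 to 1.77 in RC, with a median of 1.46. The difference was 0.35 ± 0.10 (SE; adjusted p = 0.0142, limma). Beside RPS26B the OX difference was 1.04 (adjusted p = 0.024, limma over windows), with levels of 2.79 in OX, 1.72 in RB and 1.16 in RC, and beside COM2 the levels were 1.74, 1.69 and 1.73 with a difference of 0.02. In SNR84/HLR1 (chromosome IV, 1493027 to 1494585) the level was 1.52, 1.67 and 1.56 in OX, against 0.947 to 1.43 in RB and 0.993 to 1.37 in RC. Its OX difference was 1.08 in the 300 bp beside SNR84, a small nucleolar RNA gene, and 1.32 inside it (adjusted p = 0.0003141 and 0.000315, limma over windows), against 0.18 beside HLR1, which did not pass. The OX level itself was highest at 500 to 600 bp from SNR84, at 2.56 in OX, 2.02 in RB and 1.87 in RC.

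YNCG0002C/VRG4 (chromosome VII, 73903 to 76893), between a tRNA gene and VRG4, the GDP-mannose transporter gene of the Golgi, had 1.45, 1.71 and 1.49 in OX, against 1.07 to 1.41 in RB and 1.03 to 1.32 in RC. Its OX difference was 0.34 ± 0.08 (SE; adjusted p = 0.003873, limma) and its RC difference -0.30 ± 0.06 (SE; adjusted p = 0.001187, limma). Within 1300 bp of the tRNA gene the OX mean reached 3.16 in a bin with 2.60 in RB and 2.45 in RC. In windows of 300 bp the OX difference was 0.29 beside the tRNA gene, 0.25 at the centre and 0.29 beside VRG4. Inside VRG4 it was 0.47. Without time point 4 the OX differences of SNR84/HLR1, COM2/RPS26B and YNCG0002C/VRG4 were 0.35, 0.31 and 0.27 and no longer passed the threshold, while those of HXT1/HXT5 and BSC1/PUS9 still did. The other 5 regions of this kind included YNCH0006C/RPS27B, beside a further ribosomal protein gene, and ORC2/TRM7, with differences of 0.17 to 0.29.

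**Figure D5:**
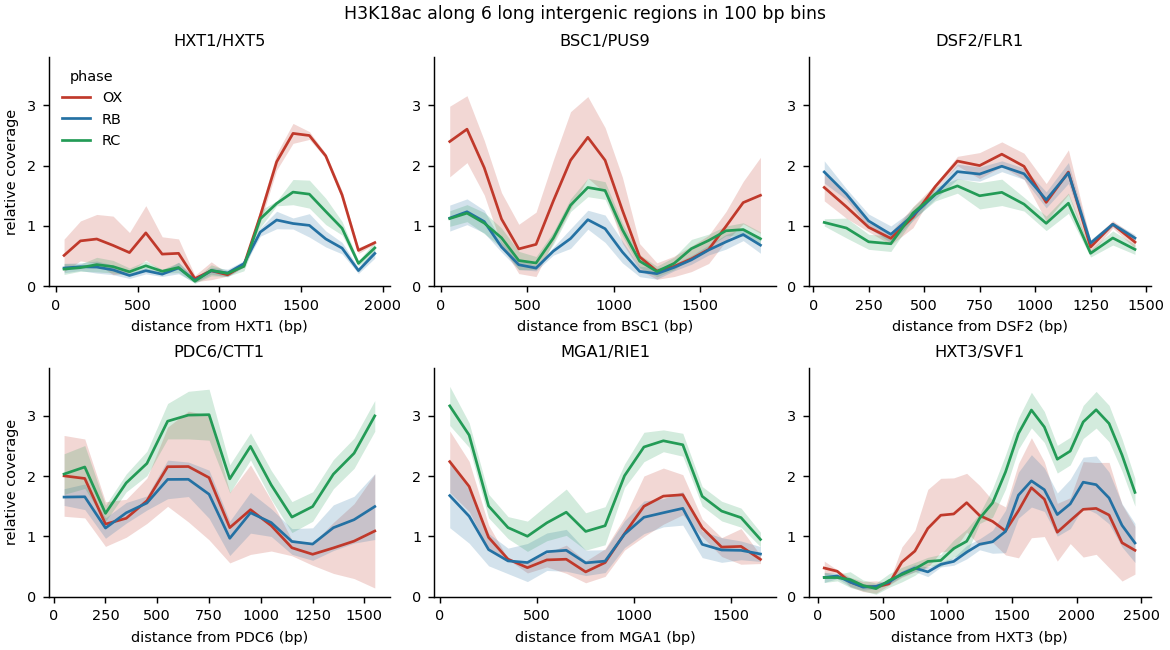
Mean relative coverage along 6 long regions in 100 bp bins against distance from the gene of lower coordinate, with 1 line per phase and bands of 1 SD over its time points. In HXT1/HXT5 and HXT3/SVF1 hills of signal lie inside the region, with bare stretches between them and the gene. They reach 2.53 in OX at 1400 to 1500 bp from HXT1 and 3.10 in RC at 1600 to 1700 bp from HXT3. In MGA1/RIE1 the highest bin lies directly beside MGA1, and the lowest bin of PDC6/CTT1 averages 1.07.

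In OX, 3 regions were called lower with all OX libraries below the 13 others, or 1.91% against 2.18% of all stretches. IME2/SET4 (chromosome X, 223328 to 225054), behind the meiotic kinase gene IME2, had 0.540, 0.403 and 0.530 in OX, against 0.588 to 0.723 in RB and 0.639 to 0.789 in RC, a difference of -0.43 ± 0.09 (SE; adjusted p = 0.00146, limma). YNCP0017C/CLB2 (chromosome XVI, 769303 to 771652), upstream of the mitotic cyclin gene CLB2, had 1.01, 0.979 and 1.05 in OX, against 1.13 to 1.47 in RB and 1.05 to 1.58 in RC. Its difference of -0.30 ± 0.11 (SE; adjusted p = 0.03513, limma) was lost without time points 3, 4, 5 or 10. AAC3/YBR085C-A (chromosome II, 416907 to 418906), behind AAC3, an ADP/ATP carrier gene of the mitochondrion, had 0.841, 0.775 and 0.790 in OX, against 0.879 to 1.14 in RB and 0.849 to 1.15 in RC, and its call (-0.26 ± 0.08; SE; adjusted p = 0.0155, limma) was lost without time point 4.

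RB was the lowest phase in many regions but never the highest by the non-overlap rule, which 0 long regions and 0.725% of all stretches met. PST2/SUT053 (chromosome IV, 504696 to 506333), upstream of PST2, a flavodoxin-like protein gene, had 1.28 to 1.53 in RB (median 1.34), against 1.87, 1.85 and 1.54 in OX and 1.54 to 1.93 in RC (median 1.88). RB lay below all others, by a difference of -0.34 ± 0.06 (SE; adjusted p = 0.001054, limma). Its ends behaved differently: the 300 bp beside PST2 had 1.18 in OX, 1.54 in RB and 2.16 in RC, and the 300 bp beside SUT053, an unannotated stable transcript, had 1.74, 1.19 and 1.72. The other regions with RB below all others were PDR12/SUR1, CMR3/YPR014C, DAN1/DAN4, SPO20/PEX9, RHO5/RPS3 and THI72/YOR192C-C, with differences of -0.34 to -0.16.

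The regions with the highest and lowest levels included some that passed no contrast and some that passed one or more. YOR376W/YOR376W-A (chromosome XV, 1043560 to 1045195) had the highest level, 2.69, 2.48 and 2.20 in OX, 2.29 to 2.70 in RB and 2.26 to 2.89 in RC, and passed no contrast, with 36.5% of its bases near the ceiling. YNCL0035C/YLR257W was next at a mean of 2.45, with no contrast passed, and PHO81/YHB1, between the genes of a phosphate-signalling kinase inhibitor and of flavohemoglobin, had 2.34 and was lower in RB (-0.17 ± 0.05; SE; adjusted p = 0.01892, limma). At the other end, YGL159W/YNCG0008W (0.581) passed no contrast, HXT1/HXT5 (0.620) had the OX and RB differences given above and a log2 range of 1.24, and PAU7/DFP1 (0.634) was lower in OX (-0.23 ± 0.08; SE; adjusted p = 0.03383, limma). The OX values of PAU7/DFP1 were 0.549, 0.458 and 0.636, lowest at time point 4, on which the OX counts rested, and they overlapped the other phases.

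The 3 longest regions lie beside genes of surface proteins and sugar transporters. YIR018C-A/FLO11 (3870 bp, chromosome IX, 385702 to 389571) meets FLO11, a flocculin gene, at its end and not at its promoter. Its level was 0.902 to 1.07 in RC (median 0.985), against 0.879, 0.827 and 0.875 in OX and 0.798 to 0.887 in RB (median 0.838), a non-overlapping RC difference of 0.20 ± 0.05 (SE; adjusted p = 0.003163, limma). The 300 bp beside FLO11 followed another phase, with 1.52 in OX, 1.01 in RB and 1.22 in RC and an OX difference of 0.42 (adjusted p = 0.008, limma over windows). HXT7/HXT6 (3679 bp, chromosome IV, 1155929 to 1159607) had 1.14 to 1.53 in RC (median 1.32), against 1.22, 0.881 and 1.20 in OX and 0.812 to 1.38 in RB, with an RC difference of 0.32 ± 0.10 (SE; adjusted p = 0.0122, limma). These groups overlapped, and since HXT6 and HXT7 are near-identical copies and multiply mapping reads were discarded, its outer parts are uncertain. YHR210C/FLO5 (3654 bp, chromosome VIII, 521738 to 525391) passed no contrast. Its hill, 1000 to 1100 bp from YHR210C, reached 1.79 in OX, 1.66 in RB and 2.06 in RC, and the 300 bp upstream of FLO5, another flocculin gene, were at 0.341 in OX, 0.421 in RB and 0.345 in RC.

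The gene lists below were chosen with earlier results of these data known, so their counts are descriptions and not independent support. Grouped by their flanking genes, the long regions beside regulators of transcription formed the longest list, which was also the one with the most genes searched. The list had 15 regions, which lay beside one of 86 transcription factor genes searched, and RC was higher in 9 and lower in 0 of them, where 32.9% and 15.5% of all stretches were called, with a median difference of 0.24 against 0.06 over all stretches. RC was higher in SOK2/SPO20 (0.47), SRM1/TOS8 (0.43), NQM1/RME1 (0.43) and YKL063C/MSN4 (0.42), which flank regulators of filamentous growth, of the cell cycle, of meiosis and of the stress response, and MGA1/RIE1 and GAT1/PAU5 above belong to this list as well. Of these, NQM1/RME1, MGA1/RIE1 and GAT1/PAU5 meet the regulator at its end and not at its start. UBC4/TEC1, with 0.01, and ECM22/CDC42, with 0.02, did not pass. RB was lower in 8 and higher in 0 of the 15, where 26.9% and 9.32% of all stretches were called. With quantile normalization RC was still higher in 9 but lower in 1, and RB was lower in 3 and higher in 1.

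A list of 29 cell wall and flocculation genes, which does not hold FLO5, had 9 long regions beside its members. RC was higher in 7 and lower in 0 of them (median 0.19), where 32.9% and 15.5% of all stretches were called. YHR210C/FLO5, described above, is outside this list and passed no contrast. CWP2/CWP1, between genes of covalently bound wall mannoproteins, had 1.96 to 2.38 in RC (median 2.14), against 1.84, 1.37 and 1.32 in OX and 1.49 to 2.19 in RB (median 1.64), and a difference of 0.41. CBK1/YGP1 had a difference of 0.37 and DAN1/DAN4, between anaerobic wall protein genes, one of 0.22. YER010C/TIR1 (0.03) and TIR2/AUS1 (0.05) did not pass. RC was higher in 5 of the 9 with quantile normalization, in 4 with median-of-ratios scaling and in 5 when time point 5, 14 or 16 was left out.

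A list of 38 genes, mostly sugar and amino acid transporters, had 5 long regions beside its members. It does not hold every transporter gene, and DSF2/FLR1, YNCG0002C/VRG4 and YNCG0042C/HIP1 are outside it. OX was higher in HXT1/HXT5 and ANY1/HXT2, where 20.4% of all stretches were called, and RC was higher in HXT3/SVF1 and HXT7/HXT6, where 32.9% were. RB was lower in 4 of the 5, where 26.9% were. ANY1/HXT2, which lies beside HXT2, had 0.860 to 0.987 in OX (median 0.939), against 0.599 to 0.875 in RB, with a median of 0.633, and 0.724 to 0.928 in RC, with a median of 0.883, with an OX difference of 0.26 that was lost when time point 3, 4, 5, 6, 7, 9 or 10 was left out. In YNCK0018C/GAP1, beside the general amino acid permease gene, RB was lower (-0.29 ± 0.06; SE; adjusted p = 0.001856, limma). Of 4 regions beside glycolytic and fermentation genes, RC was higher in PDC6/CTT1 and in CYC3/CDC19 (0.25), which flanks the pyruvate kinase gene, and not called in PUP2/ENO1 (0.12) and TDH2/MET3 (0.13). Of 3 regions beside cell cycle genes, OX was lower in YNCG0029C/CLB1 (-0.20) and YNCP0017C/CLB2 (-0.30), both beside mitotic cyclin genes, where 17.8% of all stretches were called. The CLB1 call was lost when time point 4, 5 or any one of 8 to 14 was left out, and the CLB2 call as given above. HO/GCS1, the long upstream region of the mating-type endonuclease gene, had an OX difference of 0.25 that did not pass.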

How the data were processed

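H3K18ac coverage was analysed at 16 time points. The signal is the deposited coverage: the authors trimmed reads, mapped them to the yeast genome, discarded multiply mapped reads and duplicates and wrote the number of reads over each base. The paper's methods name Bowtie as aligner, whereas the submitters' processing notes list STAR, Trimmomatic 0.32, SAMtools and bedtools. Reads of a CEN.PK strain were mapped to a reference with the chromosome lengths of R64. Coverage was averaged over stretches, 300 bp windows and 100 bp bins (numpy 2.4.6, pandas 2.3.3), divided by the nuclear mean of each library (27.5 to 39.4 reads per base) and, after adding 0.1, log2-transformed. Stretches with a mean of at least 5 reads per base were tested with limma 3.58.1 in R 4.3.3 (F test over the phases, each phase against the mean of the other 2, trended prior variance, Benjamini-Hochberg over 5793 stretches or 3199 windows). The fit was tested on simulated data. No pair of libraries was identical. Depth was 29.3 to 34.3 in OX, 31.4 to 36.0 in RB and 27.5 to 39.4 in RC.

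Members and gene lists were chosen with earlier results of these data known. Regions named were the 3 longest, the 3 highest and the 3 lowest, for each phase the 5 largest positive and 3 largest negative differences among called regions whose time points did not overlap the others, and those beside 13 transcription factor genes of the study. Other regions were named as examples of 5 further lists of flanking genes. Alternatives were other pseudocounts, coverage minimums, scalings, a correction for the ceiling, depth as a covariate, other limits of length and zero bases, smooth curves in time, windows of 200 bp and leaving out each time point. No sequence is shown, and H3 was not used here.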

Additional observations from a re-analysis of the deposited data

Results flagged for a closer look

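Within the RB and RC phases, the mean of the long regions and that of the shorter stretches, the first bins at starts, ends and tRNA genes, the interior, and each region named by rule were checked for a time point that stood apart from the others of its phase. Of 60 such groups, 8 were picked out. Chance picks out about 1 in 20 independent groups, but these groups share the same libraries and overlap, so the count cannot be set against that share. Time point 11, the last of RB, accounted for 6 of the 8. Its values stood above the other RB time points in the mean of all long regions (1.47, against 1.33 to 1.36), in their interior (1.52, against 1.36 to 1.40), in HXT3/SVF1 (1.27, against at most 0.899), in YHR210C/FLO5 (1.08, against at most 0.878), in MGA1/RIE1 (1.42, against at most 0.926) and in PDC6/CTT1 (1.91, against at most 1.42). Time point 12, the next one and in RC, accounted for the other 2, in YHR210C/FLO5 (1.07, against at most 0.911) and AAC3/YBR085C-A (1.15, against at most 0.974). Without time point 11, RB was lower in 62 and higher in 1 of the 157 regions, where 38.4% of all stretches were called in either direction. The part of the phase boundary in these values was not tested.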

How the results depend on the processing

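Of the 157 long regions, 94 were called by the F test, and leaving out each time point in turn gave 48.4% to 64.3% of them. The same settings gave 1.91% to 31.8% for OX, 26.1% to 45.9% for RB, 38.9% to 52.2% for RC, 46.1% to 61.1% of the windows by the F test and 5.83% to 32.6% of the windows for OX, and the low values for OX came without time point 4. With the ceiling corrected, 42.0% were called in OX, against 26.8%. The same correction moved the profile to 1.82 in the first bin at gene starts, 0.880 at tRNA genes and 1.73 in the interior. With regions of at least 2000 bp the first bins were 1.45 at starts, 1.01 at ends and 1.06 at tRNA genes. The median over regions gave 0.897 at ends, and bins of 50 and 200 bp gave 0.879 and 1.14 at tRNA genes, where the bin sets which bases are averaged. Profiles between 2 protein-coding genes hold no tRNA value. The RC difference of PHO81/YHB1, which did not pass as reported, was -0.070 with quantile normalization and passed. All other changes of called percentages, which pool higher and lower calls, stayed within 1.5 times. The directions changed more. RB was higher in 2 long regions as reported, but in 21 with quantile normalization, 19 with median-of-ratios scaling and 16 with the ceiling corrected. RC was lower in 8 as reported, and in 21, 22 and 15 under these settings. The median RB difference was -0.11 as reported and 0.002 with quantile normalization. The scalings that turned the direction of the tRNA-flanked regions are given with those results. No paired analysis was possible because each time point had 1 library. Depth limits small differences, and the ceiling limits high levels.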

Other observations

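FOX2/YNCK0016W, chosen after its values were seen, had the largest RC difference of all 157 long regions, although its phases overlapped. It lies between FOX2, a gene of peroxisomal fatty acid oxidation, and a tRNA gene. Its level was 1.82 to 2.25 in RC (median 2.11), against 1.79, 0.998 and 0.845 in OX (from the highest to the lowest) and 0.993 to 2.14 in RB (median 1.09). The highest RB value lay inside the RC range, and up to 10.4% of its bases had no coverage in a library. The difference was 0.77 ± 0.14 (SE; adjusted p = 0.0004864, limma).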
